A study of Drosophila melanogaster with 6 samples.

Results

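Axon guidance genes encode the secreted cues, the receptors on growth cones and the cytoplasmic proteins that steer growing axons. In the embryonic nerve cord of Drosophila, Netrins made at the midline attract axons through the receptor Frazzled, and Slit repels them through the Robo receptors, so that the balance decides which axons cross. Semaphorins and their plexin receptors, ephrins, homophilic adhesion molecules and receptor tyrosine phosphatases then sort axons into fascicles and direct motor axons to muscles. Many of these proteins also act outside the nervous system, in muscle, trachea, epidermis or the early embryo.

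A set of 36 guidance genes was followed, and 34 of them were found by current FlyBase symbol among the 14737 genes of the deposited table, with 920 of its 128393 rows (482 exonic bins, 430 annotated junctions and 8 unannotated junctions). Fas1 and Nrg could not be paired with an identifier of the table and were not analysed here. RNA came from lysates of whole Drosophila melanogaster embryos of 2 genotypes, 3 biological replicates each: embryos carrying caperCC01391, an allele of caper, which encodes an RNA-binding protein related to splicing factors, and OreR (Oregon-R) wild-type embryos. The sources used here state neither the age of the embryos nor the zygosity of the allele. Every mutant library comes from the strain that carries the allele, so effects of the allele, of strain background and of embryo age cannot be told apart. The caper gene itself was not analysed here. The study asked which genes differ in level and in isoform use between these genotypes.

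Gene counts per library summed to between 36979138 and 42956396 in the mutant and to between 34815930 and 40241577 in OreR. The found guidance genes took 0.744% to 0.819% of the counts in mutant libraries and 0.852% to 0.946% in OreR libraries. These shares are of unscaled library totals. With TMM scaling (a trimmed mean of ratios between libraries), library factors were 0.905 to 0.974 in the mutant and 1.059 to 1.072 in OreR. The summed level of the 34 genes relative to TMM-scaled totals (CPM) overlapped between genotypes. It was 7644 to 9049 CPM in mutant libraries and 7955 to 8828 CPM in OreR libraries. The lowest count of any of these genes in any library was 774, and all 34 passed the filter on low counts. Markers of the tissues that use guidance genes were detected in both genotypes: none of the listed neuron, glia, midline, neuroblast, epidermis, muscle or tracheal markers in the table was at 0. In whole embryos, fewer cells of a type and less RNA per cell cannot be told apart.

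Guidance genes changed in both directions. Netrin, Slit, adhesion and Beat or Side genes supplied 10 of the 11 lower ones, and ephrin, receptor phosphatase and cytoplasmic genes supplied 9 of the 11 higher ones. A gene was called when its p from the quasi-likelihood test of edgeR, after Benjamini-Hochberg adjustment over 10251 genes, was below 0.05. The 22 called genes were 64.7% of the 34, against 46.9% of all genes tested; 32.4% were higher, against 26.4% of all genes, and 32.4% were lower, against 20.6%. The genotypes' values did not overlap for 26 of the 34 (76.5%), against 60.4% of all genes. The changes were modest: folds were 1.31 to 2.04 among the lower genes and 1.19 to 1.66 among the higher ones, and 1 guidance gene, NetA, changed at least 2-fold. The median absolute log2 fold change of the changed members was 0.519, against 0.725 over all changed genes. With upper quartile scaling, under which the all-gene median shifted by -0.158 on the log2 scale, 5 of the 34 were higher (14.7%, against 22.1% of all genes) and 20 lower (58.8%, against 34.8%). The share of higher guidance genes was thus close to that of all genes with TMM scaling (32.4% against 26.4%) and below it with upper quartile scaling. The share of lower ones was above that of all genes with both. The count of higher guidance genes was 5 without mutant replicate 2, 7 without mutant replicate 3 and 6 without OreR replicate 1, and 8 to 11 without any other library. The median of the 34 lay below that of all genes both with the TMM scaling used here (a trimmed mean of ratios between libraries) and with upper quartile scaling (log2 differences of -0.143 and -0.145).

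**Figure D1:**
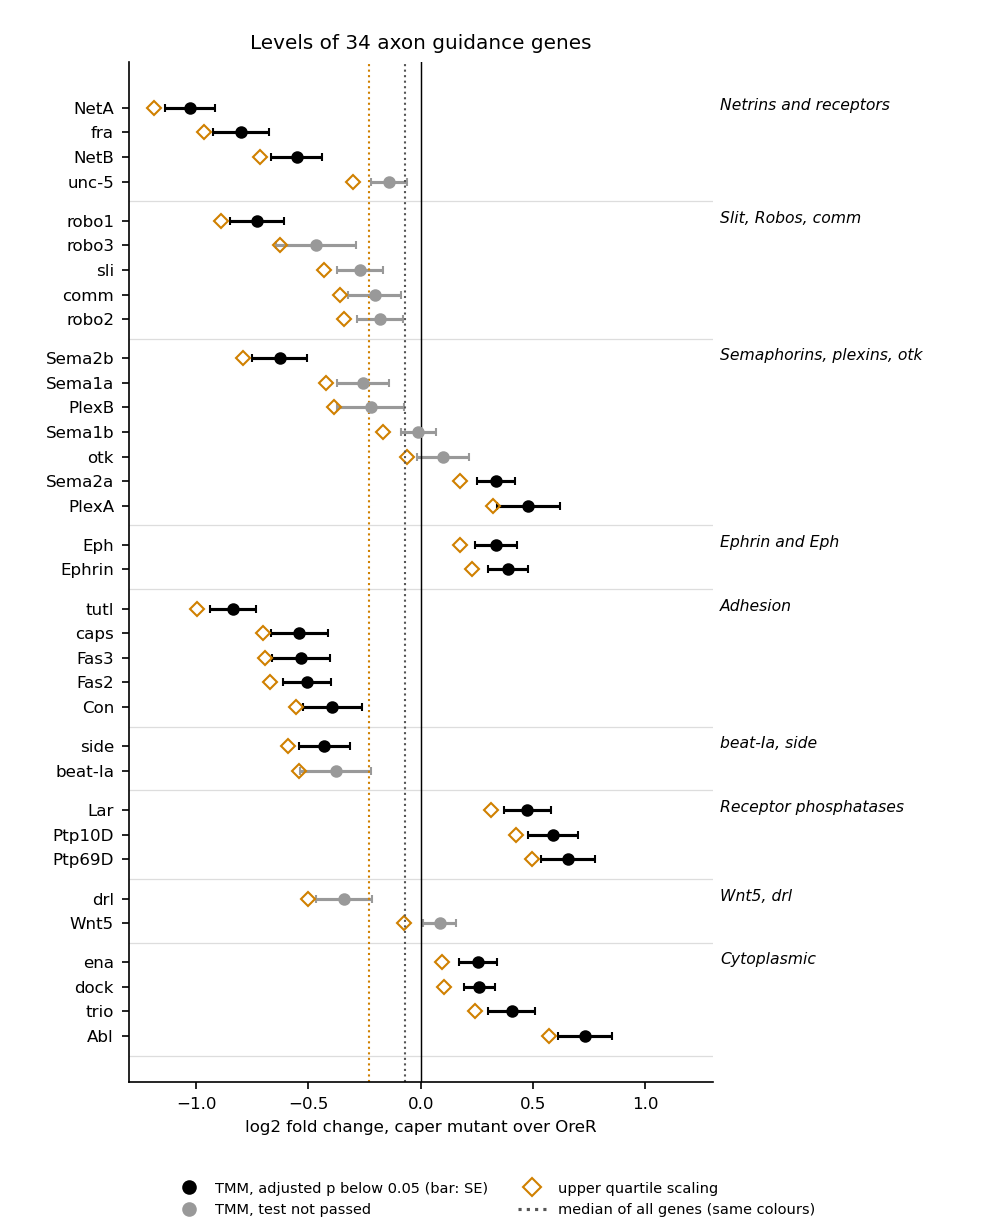
Log2 fold change (caper mutant over OreR, horizontal axis) of the 34 guidance genes, grouped by role down the page; circles with SE bars use TMM scaling, black where the adjusted p is below 0.05, diamonds use upper quartile scaling, and dotted lines mark the median of all genes under each. Netrin, Slit and adhesion genes lie left of 0, and receptor phosphatases, ephrin genes and cytoplasmic genes lie right of it.

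Of the Netrin group, 3 of 4 genes fell. NetA and NetB encode the fly Netrins, fra the attractive Netrin receptor and unc-5 the repulsive Netrin receptor. The level of NetA (FBgn0015773) in CPM (the gene's count relative to the TMM-scaled library total) was 47.1, 41.7 and 42.5 in mutant replicates 1 to 3, against 82.5, 101.9 and 83.1 in OreR replicates 1 to 3. The genotypes did not overlap, and every mutant value was well below the lowest OreR value. NetA fell 2.04-fold (log2 fold change -1.03 ± 0.11 SE, adjusted p = 0.0007 in the edgeR test). NetB (FBgn0015774) had 64.1, 59.5 and 71.2 CPM in the mutant and 86.2, 107.6 and 91.8 CPM in OreR, again without overlap, and fell 1.47-fold (adjusted p = 0.0061).

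The receptor genes of the Netrins differed from each other. The level of fra (FBgn0011592) was 297.4, 305.9 and 375.8 CPM in the mutant, against 508.3, 639.4 and 556.7 CPM in OreR, which puts the highest mutant library well under the lowest OreR library. It fell 1.74-fold (log2 fold change -0.80 ± 0.12 SE, adjusted p = 0.0018). unc-5 had 138.0, 126.4 and 141.5 CPM in the mutant and 141.2, 158.4 and 148.3 CPM in OreR, with overlapping values, and did not pass the test (log2 fold change -0.14 ± 0.08, adjusted p = 0.18); with upper quartile scaling it did (-0.30, adjusted p = 0.021). Within each library, where scaling plays no part, the ratio of fra counts to unc-5 counts was 2.15, 2.42 and 2.66 in the mutant and 3.60, 4.04 and 3.75 in OreR. The ratio of NetA counts to NetB counts was 0.678 ± 0.072 in the mutant and 0.936 ± 0.027 in OreR (SD, n = 3), also without overlap. These pairs, and those of other groups given further on, were chosen after their values were seen, and such ratios depend on transcript lengths, so they compare genotypes and not genes.

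Of the Slit group, robo1 was called lower in the mutant and the other 4 genes were not called. robo1, robo2 and robo3 encode the Slit receptors of the fly, sli their ligand, which midline glia secrete, and comm a sorting protein that keeps Robo off the growth cone surface before crossing. robo1 (FBgn0005631) had 143.7, 142.1 and 176.0 CPM in the mutant and 229.9, 287.0 and 248.0 CPM in OreR. All 3 mutant values were lower than all OreR values, a 1.66-fold fall (log2 fold change -0.73 ± 0.12, adjusted p = 0.0024). robo2 had 404.3, 351.4 and 443.8 CPM in the mutant and 446.0, 480.7 and 433.1 CPM in OreR, with overlap and an adjusted p of 0.17. The ratio of robo1 counts to robo2 counts within libraries was 0.385 ± 0.026 in the mutant and 0.562 ± 0.042 in OreR (SD, n = 3) and did not overlap.

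The ligand gene sli had 541.7, 512.6 and 613.5 CPM in the mutant and 648.0, 740.3 and 623.4 CPM in OreR. Its values did not overlap, yet the gap was small beside the spread within genotypes and the test was not passed (log2 fold change -0.27 ± 0.10, adjusted p = 0.061). The call of sli turned on the processing: without mutant replicate 3 its adjusted p was 0.034, with upper quartile scaling 0.014, and with annotated junctions summed 0.035. robo3 had 59.5, 51.7 and 42.4 CPM in the mutant and 65.8, 87.3 and 59.1 CPM in OreR, which overlap by a small margin (log2 fold change -0.47 ± 0.18, adjusted p = 0.062). It passed with upper quartile scaling (0.031), with DESeq2 (0.038) and with annotated junctions summed (0.019). comm had 80.6, 66.7 and 64.1 CPM in the mutant and 72.8, 88.0 and 82.7 CPM in OreR, which overlap (adjusted p = 0.18). With upper quartile scaling all 5 genes of this group were called lower.

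**Figure D2:**
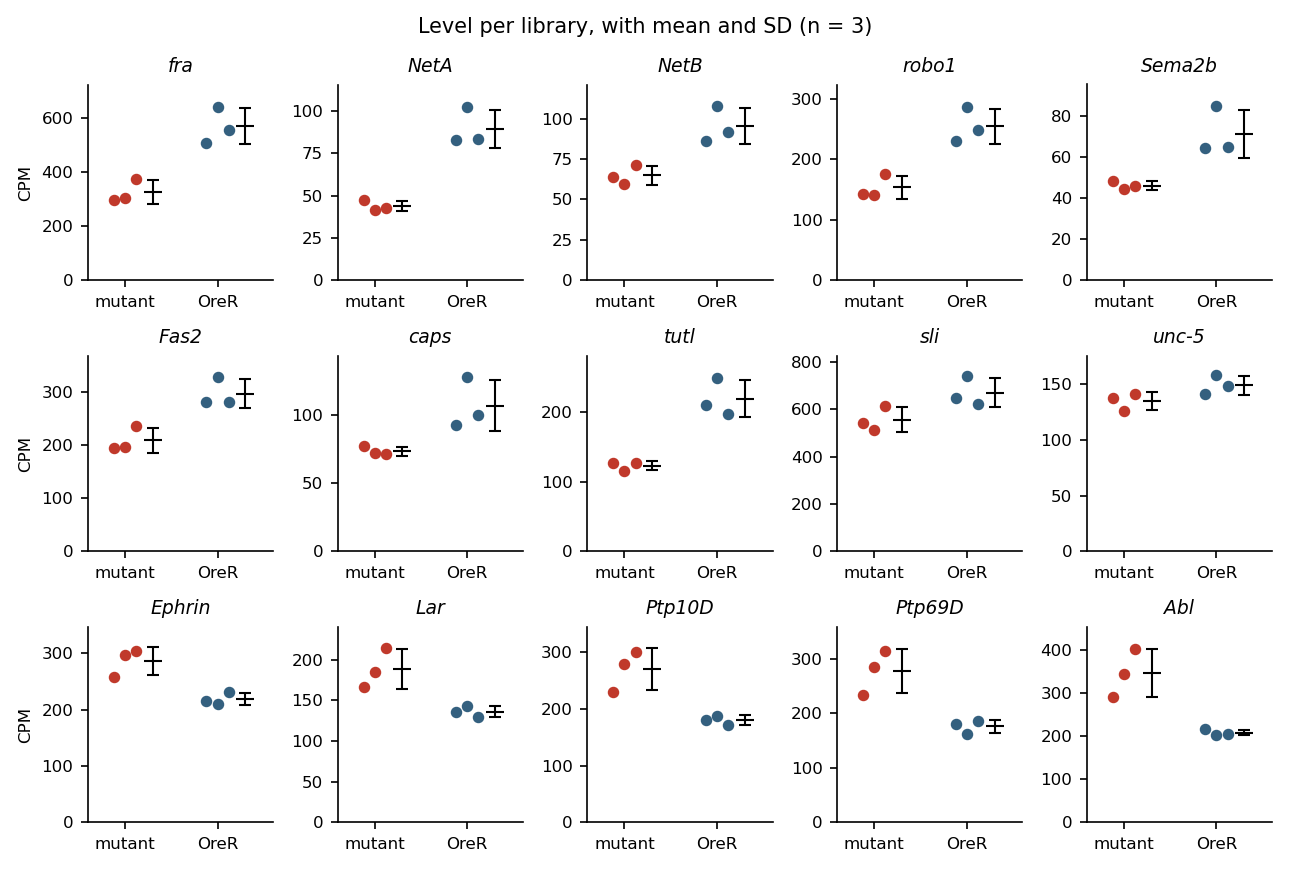
Level in CPM (vertical axes, from 0) in each of the 3 mutant (red) and 3 OreR (blue) libraries, with mean and SD, for the 13 guidance genes whose call held with each library left out and with upper quartile scaling, and for sli and unc-5. The mutant points of fra, NetA, NetB, robo1, Sema2b, Fas2, caps and tutl lie below all OreR points, and those of Ephrin, Lar, Ptp10D, Ptp69D and Abl lie above them.

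Genes of homophilic adhesion, which hold axons of a fascicle together, were lower in the mutant: all 5 that were tested fell (Fas2, Fas3, Con, caps and tutl), with TMM and with upper quartile scaling. tutl (FBgn0010473), an immunoglobulin superfamily gene, had 126.3, 115.4 and 126.3 CPM in the mutant and 210.1, 248.5 and 197.6 CPM in OreR. The genotypes did not overlap, and OreR libraries spread more widely (SD 26.5 CPM) than mutant libraries (SD 6.28 CPM). The fall was 1.78-fold (log2 fold change -0.83 ± 0.10, adjusted p = 0.00083). Fas2 (FBgn0000635), the fly relative of NCAM that marks longitudinal fascicles and motor axons, had 194.1, 197.2 and 235.1 CPM in the mutant and 280.3, 328.0 and 281.5 CPM in OreR, and fell 1.42-fold (adjusted p = 0.0071). caps, a leucine-rich repeat receptor of synaptic target choice, fell 1.45-fold (73.6 ± 3.20 CPM in the mutant and 107.1 ± 18.4 CPM in OreR, SD, n = 3, adjusted p = 0.011 in edgeR). Fas3, also an epithelial septate junction protein, averaged 467.4 ± 36.7 CPM in the mutant and 675.9 ± 112.5 CPM in OreR, and its call was lost without mutant replicate 2 (adjusted p = 0.013 with all libraries, 0.058 without). Con, a leucine-rich repeat protein of motor axons and their target muscles, had the smallest change of the group (log2 fold change -0.39 ± 0.13, adjusted p = 0.041). Its call was lost without any of mutant replicates 1, 2 and 3 or OreR replicates 2 and 3 (adjusted p from 0.072 to 0.12) and with RLE scaling (0.052).

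The motor axon pair of beat-Ia and side ran the same way. beat-Ia encodes a receptor on motor axons and side its ligand on muscles and other substrates. side had 41.6, 39.6 and 43.8 CPM in the mutant and 50.8, 64.6 and 52.9 CPM in OreR, without overlap, and fell 1.35-fold (adjusted p = 0.018); the call was lost without mutant replicate 1 (0.063) or mutant replicate 2 (0.080). beat-Ia had 24.9 ± 2.19 CPM in the mutant and 32.4 ± 6.47 CPM in OreR (SD, n = 3). It did not pass with all libraries and TMM scaling (log2 fold change -0.38 ± 0.16, adjusted p = 0.082). It was called lower with upper quartile scaling (0.031), with annotated junctions summed (0.037) and without OreR replicate 1 (0.040). Their paralogues were looked at after the values were seen. Of 12 other beat genes 6, and of 7 other side genes 4, were called lower and none higher, against 20.6% lower over all genes. Every log2 fold change in these families was negative under TMM, upper quartile and RLE scaling, against 5631 of 10251 genes under TMM. Several paralogues had low levels, such as beat-VII (0.488 CPM in the mutant and 1.06 CPM in OreR), while side-V had 103.2 CPM in the mutant and 124.4 CPM in OreR.

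Semaphorin signalling showed opposite changes among its genes. Sema2a and Sema2b encode secreted semaphorins that act through PlexB, and Sema1a and Sema1b transmembrane semaphorins that act through PlexA. Sema2b (FBgn0264273) had 48.2, 44.2 and 45.8 CPM in the mutant and 64.1, 84.5 and 65.0 CPM in OreR. Its values did not overlap and fell 1.54-fold (log2 fold change -0.63 ± 0.12, adjusted p = 0.0053). Its paralogue Sema2a had 686.6, 746.0 and 822.9 CPM in the mutant and 579.3, 599.0 and 609.0 CPM in OreR. All mutant values of Sema2a were higher than all OreR values, the reverse of Sema2b, and it rose 1.26-fold (adjusted p = 0.016). The ratio of Sema2a counts to Sema2b counts was 16.4 ± 1.92 in the mutant and 8.50 ± 1.23 in OreR (SD, n = 3). The call of Sema2a was lost with upper quartile scaling (log2 fold change 0.18, adjusted p = 0.084) and without mutant replicate 2 or OreR replicate 1 (0.057 for each).

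The plexin receptor genes also diverged. PlexA had 684.6, 873.5 and 985.4 CPM in the mutant and 635.7, 540.9 and 647.6 CPM in OreR. Mutant replicate 1 lay close to the OreR libraries and replicates 2 and 3 well above them. PlexA rose 1.39-fold (log2 fold change 0.48 ± 0.14, adjusted p = 0.028), a call lost with upper quartile scaling (0.061), without mutant replicate 2 or 3 (0.088 and 0.071) and without OreR replicate 1 or 2 (0.055 and 0.084). PlexB had 85.5, 112.1 and 132.1 CPM in the mutant and 133.4, 120.4 and 131.0 CPM in OreR, which overlap (adjusted p = 0.25). The PlexA to PlexB count ratio was 7.75 ± 0.273 in the mutant and 4.73 ± 0.227 in OreR (SD, n = 3), without overlap. Sema1a (log2 fold change -0.26 ± 0.12, adjusted p = 0.10), Sema1b (-0.01 ± 0.08, adjusted p = 0.92) and otk, a kinase-like partner of plexins (0.10 ± 0.12, adjusted p = 0.50), did not pass, and the sign of otk turned with upper quartile scaling. With upper quartile scaling Sema1a and PlexB were called lower (adjusted p = 0.022 and 0.043).

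Both genes of ephrin signalling rose. Ephrin (FBgn0040324), the membrane-bound ligand, had 258.9, 296.6 and 304.4 CPM in the mutant and 214.9, 210.4 and 231.5 CPM in OreR, without overlap, a 1.31-fold rise (log2 fold change 0.39 ± 0.09, adjusted p = 0.0098) that held with upper quartile scaling (0.23). Its receptor gene Eph had 391.0, 426.6 and 477.1 CPM in the mutant and 339.6, 326.6 and 360.1 CPM in OreR and rose 1.26-fold (adjusted p = 0.022). The call of Eph was lost with upper quartile scaling (0.084), without mutant replicate 2 or 3 (0.069 and 0.060) and without OreR replicate 1 or 2 (0.066 and 0.060).

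The 3 receptor tyrosine phosphatase genes of the set, Lar, Ptp10D and Ptp69D, rose. Their products act in motor axon guidance and midline crossing. All 3 were higher with TMM, upper quartile and RLE scaling and with each library left out. Receptor phosphatase genes outside the set went the other way. Ptp99A was called lower (log2 fold change -0.29, adjusted p = 0.037 in edgeR). Ptp52F (-0.49, adjusted p = 0.057) and Ptp4E (-0.20, adjusted p = 0.11) had negative values and were not called. Ptp69D (FBgn0014007) had 233.7, 284.7 and 314.7 CPM in the mutant and 181.1, 162.8 and 185.5 CPM in OreR. Ptp10D (FBgn0004370) had 228.5, 279.3 and 300.3 CPM in the mutant and 179.6, 187.9 and 170.4 CPM in OreR. In both genes the 3 OreR libraries lay close together and the mutant libraries were spread more widely above them, with replicate 1 lowest. Ptp69D rose 1.57-fold (log2 fold change 0.65 ± 0.12, adjusted p = 0.0038) and Ptp10D 1.50-fold (0.59 ± 0.11, adjusted p = 0.0044). Lar, the fly relative of the LAR phosphatases, rose 1.39-fold (188.7 ± 24.2 CPM in the mutant and 135.9 ± 6.76 CPM in OreR, SD, n = 3, adjusted p = 0.0088).

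All 4 cytoplasmic genes, which relay guidance signals to the actin cytoskeleton, rose with TMM scaling. Abl (FBgn0000017), the tyrosine kinase that acts below several guidance receptors, had 291.8, 345.1 and 403.3 CPM in the mutant and 216.4, 204.0 and 205.7 CPM in OreR. Its lowest mutant value was well above its highest OreR value, and its rise of 1.66-fold was the largest among the 34 genes (log2 fold change 0.73 ± 0.12, adjusted p = 0.0023). trio, a guanine nucleotide exchange factor for Rac, rose 1.32-fold (382.8 ± 51.0 CPM in the mutant and 289.1 ± 7.34 CPM in OreR), dock, the Nck adaptor, 1.20-fold (202.9 ± 5.59 and 169.3 ± 4.90 CPM in mutant and OreR) and ena, the actin regulator that opposes Abl genetically, 1.19-fold (265.4 ± 24.3 and 222.7 ± 0.58 CPM in mutant and OreR; SD, n = 3). The calls of trio, dock and ena were lost with upper quartile scaling (adjusted p = 0.062, 0.20 and 0.30) and without mutant replicate 2 (0.053, 0.064 and 0.099). The call of dock was also lost without mutant replicate 3 (0.057) or OreR replicate 1 (0.068), and that of ena without mutant replicate 3 or any OreR replicate (0.066 to 0.12).

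Wnt5, which repels axons through the Derailed receptor and so steers them to the anterior commissure, and drl, the gene of that receptor, did not pass the test. Wnt5 had 131.6, 133.1 and 143.9 CPM in the mutant and 125.1, 131.5 and 128.9 CPM in OreR (log2 fold change 0.08 ± 0.07, adjusted p = 0.36), which did not overlap, and its sign turned with upper quartile scaling (-0.08). drl had 162.0, 134.7 and 158.3 CPM in the mutant and 167.2, 222.2 and 187.3 CPM in OreR (log2 fold change -0.34 ± 0.12, adjusted p = 0.054). Its values did not overlap, and it was called lower with upper quartile scaling (adjusted p = 0.018) and without OreR replicate 1 (0.035).

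Markers of several tissues also differed between genotypes. Over all genes tested, 20.6% were lower and 26.4% higher, and the marker counts are to be read beside these shares. Of 14 neuron markers tested, 10 were lower in the mutant and none higher, and their summed level was 1034 to 1124 CPM in mutant libraries and 1467 to 1840 CPM in OreR libraries. The pan-neuronal gene elav itself was not called (322.0 CPM in the mutant and 385.8 CPM in OreR, adjusted p = 0.092). Of 8 muscle markers 6 were lower (summed 2254 to 3771 CPM in the mutant and 4280 to 6344 CPM in OreR), of 9 glia markers 5 were lower (1043 to 1251 and 1289 to 1348 CPM in mutant and OreR) and of 12 epidermis markers 4 were lower (1404 to 1894 and 2068 to 2800 CPM in mutant and OreR). Of 9 maternal transcripts 4 were higher and none lower, with sums of 2993 to 4076 CPM in the mutant and 1248 to 1908 CPM in OreR. A single gene, smg, made up most of the mutant sums (mean 2439 CPM in the mutant and 854 CPM in OreR). Of the 9 log2 fold changes 7 were positive and 2 negative, those of osk (-0.26) and exu (-0.16). Of 7 midline markers 1, wrapper, was lower, of 8 neuroblast markers 1 was higher and 2 lower, and of 4 tracheal markers 1 was lower. In these short lists the share of lower genes was close to that of all genes. None of 10 early zygotic patterning genes was called by edgeR (1 at an unadjusted p below 0.05, 0 called by DESeq2, 2 lower with upper quartile scaling). With upper quartile scaling 13 of 14 neuron, 8 of 8 muscle, 6 of 9 glia and 8 of 12 epidermis markers were lower. Of 9 maternal transcripts 4 were higher with it. Under that scaling 34.8% of all genes were lower and 22.1% higher. Tissue make-up and embryo age were not measured otherwise, and their part in the guidance gene changes was not tested.

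**Figure D3:**
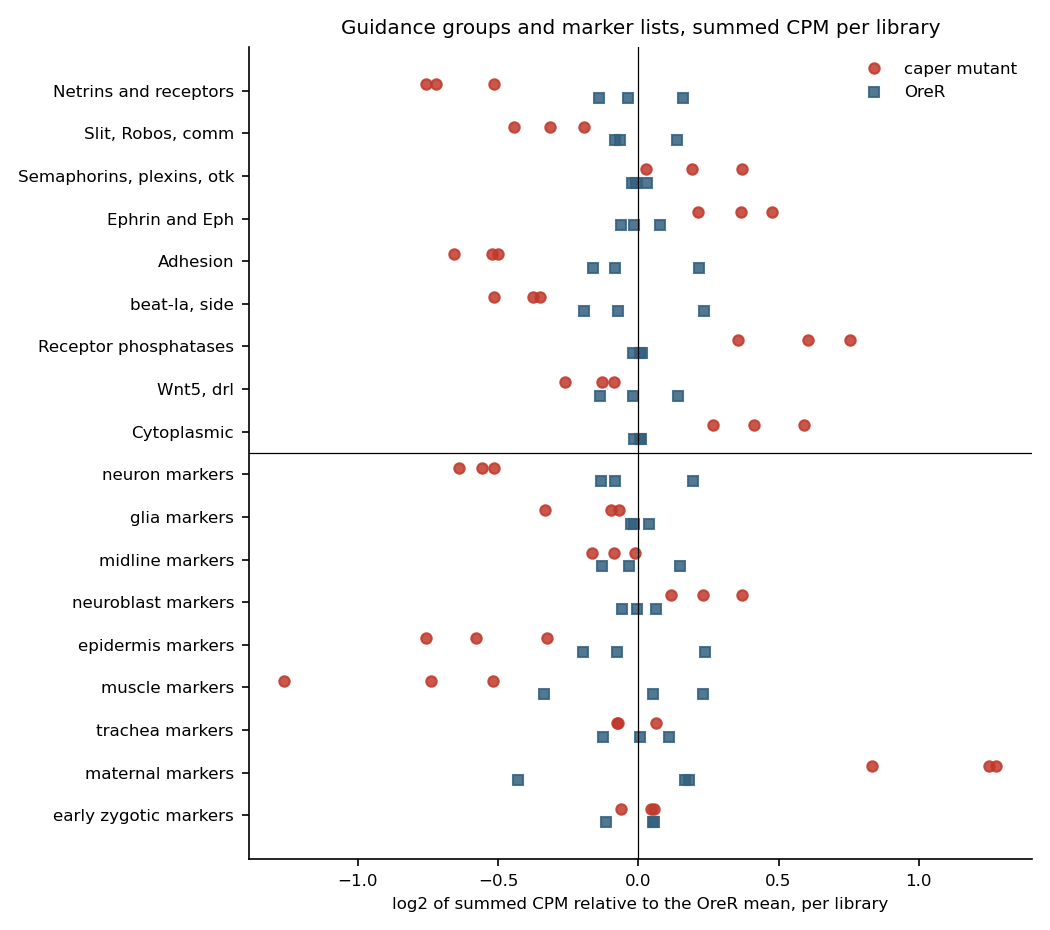
Log2 of the summed CPM of each guidance group (above the line) and marker list (below it) relative to the OreR mean (horizontal axis), with 1 point per library, mutant as red circles and OreR as blue squares. Netrin, adhesion, neuron, epidermis and muscle sums of all mutant libraries lie below those of all OreR libraries, and receptor phosphatase, ephrin, cytoplasmic and maternal sums lie above them. The sum over all genes tested, which is not drawn, was itself at 0.132, 0.194 and 0.238 in mutant replicates 1 to 3.

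Of 50 other surface or secreted guidance genes, 25 were lower (50%, against 20.6% of all genes) and 5 higher (10%, against 26.4%) in the mutant. Their median log2 fold change was -0.49, against -0.07 for all genes tested. The lower genes with the smallest p were Dscam4, a Dscam paralogue (3.98 ± 1.52 CPM in the mutant and 38.8 ± 1.11 CPM in OreR, 9.73-fold lower), the cell surface gene sas, a ligand of Ptp10D (1.59-fold lower), and nrm (1.51-fold lower). The higher ones with the smallest p were Tl, the Toll receptor (2.23-fold), dlp, a glypican (1.51-fold), and sdk (1.36-fold). Of 26 other cytoplasmic genes, 10 were higher (38.5%) and 6 lower (23.1%), with a median of 0.20; the share of lower genes was close to that of all genes. The higher genes with the smallest p were the actin regulators tsr (cofilin, 1.81-fold) and capt (1.76-fold) and the Rac-like GTPase gene Mtl (1.80-fold). The lower genes with the smallest p were Vav (1.55-fold), Moe (1.30-fold) and SCAR (1.25-fold). Of 14 transcription factors of axon guidance, 2 were lower (14.3%), vvl (1.40-fold) and zfh1 (1.19-fold), and none was higher. With upper quartile scaling the 3 lists held 33, 10 and 6 lower genes and 2, 7 and 0 higher ones, in the order given. The lower genes were 66.0%, 38.5% and 42.9% of the lists, against 34.8% of all genes under that scaling. The higher ones were 4.0%, 26.9% and 0.0%, against 22.1% of all genes. Over the 3 lists, 33 genes were lower and 15 higher; without mutant replicate 2, 10 were lower and 9 higher, and without mutant replicate 1, OreR replicate 1 or OreR replicate 2, 17, 21 and 18 were lower. Without mutant replicate 3 or OreR replicate 1, 9 were higher.

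Isoform use was compared as the share of a gene's count that fell in each exonic bin or splice junction, so that a change in the gene's level alone does not move it. Of 33 guidance genes tested, 8 had changed usage (diffSpliceDGE of edgeR, Simes p per gene, adjusted p below 0.05): fra, Fas2, tutl, Lar, Ptp10D, trio, dock and Abl. That is 24.2%, against 6.13% of all 8532 genes tested; among genes with at least 10 features tested it was 8 of 29 (27.6%), against 11.5% of 3297 genes. All 8 had also changed in level. Without mutant replicate 2, OreR replicate 2 or OreR replicate 3, the number with changed usage was 3, 4 and 5, and without any other library it was 7 or 8. By feature, 25 of 838 bins and junctions passed, against 1.82% of all features tested, and 22 of these 25 had a lower share in the mutant. Lower shares also made up 68.7% of the features that passed over all genes. The build of the table differs from the annotation at hand, so bins (E) and junctions (J) keep the numbers of the deposited table and are not placed on exons.

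Of these 8 genes, fra and Fas2 were those whose feature with the smallest p had a higher share in the mutant. Junction J019 of fra took 4.07%, 3.84% and 3.78% of the gene's counts in mutant replicates 1 to 3, against 1.80%, 1.72% and 1.87% in OreR replicates 1 to 3. The shares of the genotypes were tightly grouped and far apart (adjusted p = 4e-05), while a second fra junction, J014, had a lower share in the mutant (0.203% ± 0.044 and 0.440% ± 0.052 in mutant and OreR, SD, n = 3, adjusted p = 0.030 in diffSpliceDGE). No bin of fra passed. Junction J022 of Fas2 had 2.31%, 3.34% and 2.82% in the mutant and 1.73%, 1.28% and 1.27% in OreR (adjusted p = 0.00011). The usage call of Fas2 was lost without mutant replicate 2 (Simes adjusted p = 0.14) or OreR replicate 3 (0.051).

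Among the cytoplasmic genes, trio, dock and Abl had features of lower share in the mutant and none of higher share. In trio, bin E015 held 13 counts over the mutant libraries and 83 over the OreR libraries (0.036%, 0.031% and 0.024% of the gene in the mutant, against 0.246%, 0.260% and 0.213% in OreR; adjusted p = 5.2e-09). Bins E009 and E012 and junctions J030 and J033 of trio also had lower shares, of which J030 was lost without mutant replicate 3 (adjusted p = 0.074). Each is a minor part of the gene: the largest, E012, took 0.507% ± 0.098 in the mutant and 1.12% ± 0.139 in OreR (SD, n = 3).

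Among the features that passed, bin E009 of dock had the largest difference in share. It took 17.2%, 16.6% and 15.2% of dock counts in the mutant and 22.3%, 24.9% and 23.8% in OreR, a difference of -7.37 percentage points with no overlap (adjusted p = 0.016). That feature passed without mutant replicate 1 and was lost without mutant replicate 2 (0.19) or 3 (0.094) and without OreR replicate 1 (0.051), 2 (0.056) or 3 (0.059). Junction J012 of dock had the smallest p of the gene, with 37 counts over the mutant libraries and 139 over the OreR libraries (0.158% ± 0.011 and 0.681% ± 0.144 in mutant and OreR, adjusted p = 1.6e-07 in diffSpliceDGE), and it passed with each library left out. The usage call of dock as a gene was lost when features needed a mean count of at least 50 (Simes adjusted p = 0.054), a filter that leaves out J012. In Abl, bin E004 took 1.96%, 1.82% and 1.95% in the mutant and 2.83%, 4.48% and 4.09% in OreR, and junction J014 0.582% ± 0.090 and 1.30% ± 0.235 (mutant and OreR, SD, n = 3). The usage call of Abl was lost without mutant replicate 2 (Simes adjusted p = 0.078) or OreR replicate 2 (0.13).

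The usage calls of Ptp10D, Lar and tutl also depended on single libraries. In Ptp10D, bin E020 took 8.37%, 5.60% and 4.46% of the counts in the mutant and 8.55%, 12.5% and 10.7% in OreR, so that mutant replicate 1 nearly reached OreR replicate 1. The call of Ptp10D was lost without mutant replicate 2 or 3 (Simes adjusted p = 0.49 and 0.30) and without OreR replicate 2 or 3 (0.60 and 0.18). Junction J034 of Ptp10D also passed, with overlapping shares (0.205% ± 0.031 and 0.509% ± 0.266 in mutant and OreR, SD, n = 3). In Lar, bin E001 held 39 counts over the mutant libraries and 96 over the OreR libraries, and junction J055 held 37 and 87 (mutant and OreR). The call of Lar was lost without mutant replicate 2 (0.26) or any OreR replicate (0.074 to 0.41). In tutl, bin E010 held 4 and 52 counts in mutant and OreR, and the call was lost without mutant replicate 1 or 2 (0.28 and 0.18) or OreR replicate 2 (0.18). Ptp69D, whose level rose as did those of Lar and Ptp10D, had no feature that passed among 25 tested.

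**Figure D4:**
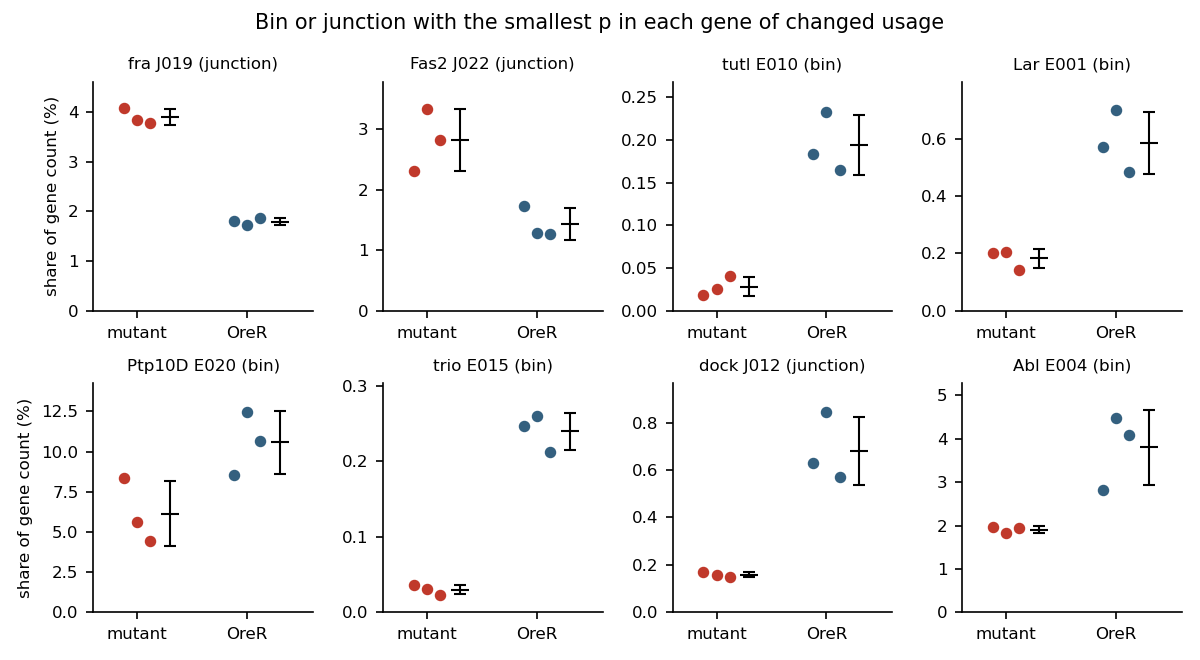
Share of the gene's counts (percent, vertical axes from 0) in the bin or junction with the smallest p of each of the 8 guidance genes with changed usage, per library for the mutant (red) and OreR (blue), with mean and SD. Junctions of fra and Fas2 have higher shares in all mutant libraries, and the features of tutl, Lar, Ptp10D, trio, dock and Abl have lower ones.

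No feature passed in NetA, NetB, sli, robo1, robo2, robo3, comm or unc-5, among 4 to 45 features tested per gene in diffSpliceDGE. Of their 190 features tested, 9 had an unadjusted p below 0.05, and limma's diffSplice called 1 of the genes, NetB (adjusted p = 0.044). These data do not exclude shifts of several percentage points. The largest difference between genotype means of a feature was 5.48 percentage points in NetB, 6.36 in robo1, 6.245 in robo3 and 6.19 in sli, and none of these passed.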

How the data were processed

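Whole-embryo RNA of 3 caper mutant and 3 OreR samples was sequenced with a stranded kit, per the labels' protocols. The authors deposited a single table of counts per exonic bin or splice junction, with counts of the rest of the gene, and the same values divided by a library size factor, a normalised signal used here only to check that each library has 1 constant factor. GSNAP 2014-12-17, SAMtools, BDGP5 and mm10 are listed per the submitters' processing notes; the sources used here name no annotation, counter or strand setting, so overlapping and antisense genes may share counts. A gene's count was the smallest sum of feature and rest over its rows. Symbols came from tables of the BDGP6 release; 14100 genes were named and 637 were not.

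The level test was glmQLFTest of edgeR 4.0.16 under R 4.3.3, after filterByExpr, TMM scaling and glmQLFit, with genotype as the only term and Benjamini-Hochberg adjustment; the SE is the log2 fold change over the square root of F. Usage was tested with diffSpliceDGE on features passing filterByExpr in genes with at least 2. Both were tested on simulated data. Alternatives were upper quartile and RLE scaling, DESeq2 1.42.0, limma 3.58.1 diffSplice, other filters, junction or bin sums, each replicate left out, and a replicate block. P-values measure the spread between 3 samples a group; no pair of replicates agreed within sampling noise. Each guidance gene found is named, with the leading features of genes with changed usage and the 3 smallest p in each direction of each further list. The genes, lists and tests were chosen with earlier results of these data known.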

Additional observations from a re-analysis of the deposited data

How the results depend on the processing

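No called guidance gene changed direction under any alternative. The 11 higher guidance genes became 5 with upper quartile scaling and 5 to 11 with a library left out; the 11 lower became 20 with upper quartile scaling. The other guidance genes, 15 higher and 33 lower as reported, had 9 higher with upper quartile scaling, 19 lower without a filter on low counts, and 9 to 16 higher and 10 to 25 lower with a library left out. Guidance genes with changed usage, 8 as reported, numbered 5 when features needed a mean count of at least 50 and 3 to 8 with a library left out. The lowest of these counts came without mutant replicate 2, alone or tied. In each case the cause was not tested, beyond the fewer features or samples that a filter or a left-out library leaves. The fall of NetA, NetB, fra, robo1, Sema2b, Fas2, caps and tutl and the rise of Ephrin, Lar, Ptp10D, Ptp69D and Abl held under every alternative of the level test. With the replicate number as a replicate block, 10 guidance genes were higher, 12 lower and 7 changed in usage. The deviations of same-numbered samples correlated by 0.090, -0.012 and 0.597, so the numbers were not taken as pairs.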

Other observations

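Sema2a and ena did not pass the usage test per gene (Simes adjusted p = 0.069 and 0.24 in diffSpliceDGE), although single features of each did. Bin E001 of Sema2a took 0.742%, 0.758% and 0.922% of its counts in mutant replicates 1 to 3 and 1.54%, 1.29% and 1.32% in OreR replicates 1 to 3, and bin E002 and junction J020 were also lower. Junction J024 of ena took 1.87%, 1.90% and 1.96% in the mutant and 1.09%, 1.03% and 1.35% in OreR, without overlap (adjusted p = 0.043 over all features).

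The 8 unannotated junctions of guidance genes lay in dock, tutl, Fas2, Fas3 and PlexA. The most used was N025 of Fas3, with 1394 counts over the mutant libraries and 1841 over the OreR libraries (2.61% ± 0.309 and 2.26% ± 0.173 of the gene in mutant and OreR, SD, n = 3). N023 of Fas2 took 1.24% ± 0.183 in the mutant and 1.05% ± 0.036 in OreR. Of the 4 that were tested none passed in diffSpliceDGE, with an unadjusted p of 0.24 or more.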
